A study of Mus musculus with 9 samples.

Results

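Among the genes of blood monocytes measured on arrays, 10 genes of the T cell lineage were followed here: Cd3e, Cd3d, Cd3g, Cd5, Cd6, Cd28, Lat, Bcl11b, Lef1 and Tcf7. They were chosen by gene symbol in the array annotation, and 9 of the 10 were measured, of 19938 genes tested in all. Tcf7 had no probe set with a single symbol and was not analysed here. The samples were monocytes of Ccr2-/- mice, of Ccl2-/- mice and of wild type mice, all on the Balb/cJ strain, aged 14 to 18 weeks and carrying neither a tumor nor the mammary tumor transgene used elsewhere in the study. Each genotype had 3 arrays, and each array held RNA of the pooled blood of 5 mice. Ccr2 is the chemokine receptor that lets inflammatory monocytes leave the bone marrow, and Ccl2 is a ligand of this receptor. The knockouts are germline, so every cell of the blood lacked the gene.

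Monocytes were purified with magnetic beads. A first column held back cells with CD4 or CD8 (T cells), B220 (B cells), CCR3 (eosinophils), Ly-6G (neutrophils) or MHC class II, and cells with CD11b were then selected from those that passed. The study defined its monocytes as negative for the NK cell antigen NK1.1, but neither an antibody to NK1.1 nor one to CD3 or the T cell receptor was named among those of this step. The values were hybridisation intensities on a log2 scale, on which a difference of 1 is a doubling. Levels of different probe sets cannot be set against each other, so each gene was compared with itself across arrays.

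The T cell receptor recognises peptide on MHC molecules but has no signalling tail of its own. It signals through the CD3 chains, whose phosphorylated tails recruit the kinase Zap70, which then phosphorylates the adaptor Lat. Cd5, Cd6 and Cd28 encode surface receptors that dampen or strengthen this signal, and Bcl11b, Lef1 and Tcf7 encode transcription factors that direct T cell development. Mature T cells circulate in blood in large numbers, and several of these genes are also used by NK cells and other innate lymphocytes.

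Of the genotype labels only Ccr2-/- could be checked, by Ccr2 itself, and the levels of monocyte markers are given as a description. Monocyte markers had a mean log2 intensity of 12.10 to 12.23 over 10 genes in Ccr2-/- samples, 12.42 to 12.60 in Ccl2-/- samples and 12.58 to 12.66 in wild type samples. Ccr2 itself was at 9.41 to 9.47 on Ccr2-/- arrays, 12.61 to 12.93 on Ccl2-/- arrays and 12.99 to 13.26 on wild type arrays. The Ccl2 probe set was not lower on Ccl2-/- arrays (9.87, 9.27 and 9.23) than on wild type arrays (8.90, 9.22 and 8.82), and since its position relative to the deletion was not given, it checked nothing. One array stood apart, that of Ccl2-/- replicate 1, with a median intensity of 430.8 over all probe sets, against 324.1 to 355.1 on the other 8. Results that turned on it are also given without it, or after median centring.

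None of the 9 T cell genes passed the test between genotypes. In Ccr2-/- against wild type monocytes, 0 of 9 passed the test, whereas 13.3% of all genes did, 4.91% higher and 8.38% lower. In Ccl2-/- against wild type, 0 of 9 passed with 0.16% of all genes, and in Ccr2-/- against Ccl2-/-, 0 of 9 passed with 3.6% of all genes. A gene passed when limma's adjusted p over all genes was under 0.05. At an unadjusted p under 0.05, 2 of 9 genes were called in Ccr2-/- against wild type, both higher (Lat and Lef1), with 23.2% of all genes. The other comparisons had 0 of 9, with 13.1% of all genes in Ccl2-/- against wild type and 18.6% in Ccr2-/- against Ccl2-/-. A p that misses the threshold does not show that levels were equal, and for several genes the intervals given below were wide. In such bulk samples fewer T cells and less RNA per T cell cannot be told apart. The p values rest on the spread between pools of mice and not between single mice.

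**Figure D1:**
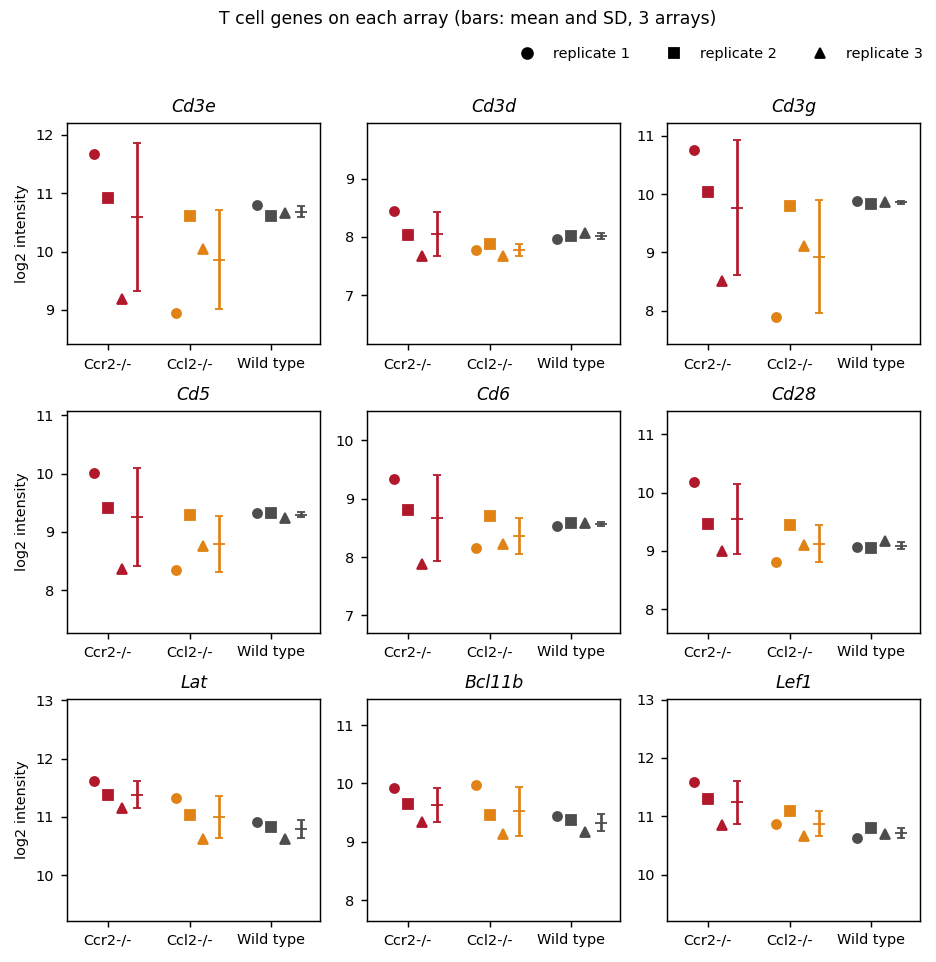
Log2 intensity of the 9 T cell genes on each array of Ccr2-/-, Ccl2-/- and wild type monocytes, left to right in each panel, with symbols for replicates 1 to 3 and bars for the mean and SD of 3 arrays; every panel spans the same range. The knockout arrays of Cd3e and Cd3g lie far apart while the wild type arrays lie together, and Lat and Lef1 are the genes whose Ccr2-/- arrays all lie above the wild type arrays.

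Cd3e and Cd3g varied most among the 9 genes. The CD3 genes lie near each other on chromosome 9, where Cd3g and Cd3d are transcribed in opposite directions from neighbouring start sites. The 250 bases before the start sites of the CD3 genes and Cd5 are shown as RefSeq gives them for GRCm38.p6. They run 5′ to 3′ on the strand of the gene. Whether these bases bear on the spread between arrays was not tested. Capitals mark CACCTG, or CAGGTG where it lies on the other strand, an E-box that E proteins can bind. Windows were printed for Cd3e (chr9:45009612-45009861, minus strand), Cd3g (chr9:44980432-44980681, minus strand), Cd3d (chr9:44981536-44981785, plus strand) and Cd5 (chr19:10738975-10739224, minus strand).
Cd3e: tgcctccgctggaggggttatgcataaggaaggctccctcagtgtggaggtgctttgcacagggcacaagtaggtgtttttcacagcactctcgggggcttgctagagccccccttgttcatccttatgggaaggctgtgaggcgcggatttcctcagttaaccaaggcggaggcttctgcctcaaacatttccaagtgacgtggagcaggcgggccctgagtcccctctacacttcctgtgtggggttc
Cd3g: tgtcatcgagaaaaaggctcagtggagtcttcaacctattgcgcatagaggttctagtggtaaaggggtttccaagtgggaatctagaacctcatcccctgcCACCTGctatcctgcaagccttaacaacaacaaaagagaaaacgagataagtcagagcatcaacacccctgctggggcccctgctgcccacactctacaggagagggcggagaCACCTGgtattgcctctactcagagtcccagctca
Cd3d: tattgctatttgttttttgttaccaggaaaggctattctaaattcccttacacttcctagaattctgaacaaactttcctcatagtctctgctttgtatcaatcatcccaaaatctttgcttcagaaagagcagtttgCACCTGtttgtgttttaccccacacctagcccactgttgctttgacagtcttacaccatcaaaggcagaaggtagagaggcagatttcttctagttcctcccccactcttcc
Cd5: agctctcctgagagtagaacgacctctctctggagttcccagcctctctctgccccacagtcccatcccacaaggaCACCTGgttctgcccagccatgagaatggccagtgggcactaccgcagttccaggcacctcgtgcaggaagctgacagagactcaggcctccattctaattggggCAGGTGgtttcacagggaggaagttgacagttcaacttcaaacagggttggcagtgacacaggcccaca
Counting back from -1 at the base before the start site, the E-box began at -148 and -35 in Cd3g, at -112 in Cd3d and at -174 and -69 in Cd5. The Cd3e window held none, nor did that of Lat, whereas 17.2% of 32851 promoter windows of this length held at least 1. The RUNX core TGTGGT, read on both strands, was in none of these 5 windows (14% of all windows), and neither was TATAAA, also read on both strands (12.4% of all windows). The letters were chosen after the sequences were read, and a match is a description of these bases only. Promoter entries were found for 7 of the 9 measured genes, not for Cd6 and Cd28. The windows of Bcl11b and Lef1 were not searched.

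Cd3e (probe set 10593024), which encodes the epsilon chain found in every CD3 complex, was at 11.68, 10.92 and 9.20 log2 units on Ccr2-/- arrays, 8.94, 10.61 and 10.04 on Ccl2-/- arrays, and 10.80, 10.60 and 10.66 on wild type arrays. The Ccr2-/- arrays lay on both sides of the wild type arrays, and the groups overlapped. Replicates 1 and 3 of Ccr2-/- differed 5.59-fold, and the highest and lowest Ccl2-/- arrays 3.19-fold, against 1.15-fold between the wild type arrays. The group means were 10.60 ± 1.27 in Ccr2-/-, 9.86 ± 0.85 in Ccl2-/- and 10.69 ± 0.10 in wild type monocytes (SD, n = 3 each). The log2 change was -0.09 in Ccr2-/- over wild type (95% interval -1.49 to 1.31, adjusted p = 0.978) and -0.82 in Ccl2-/- over wild type (-2.23 to 0.58, adjusted p = 0.535), or -0.36 without replicate 1 of Ccl2-/-.

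Cd3g (probe set 10593015), which encodes the gamma chain, followed Cd3e closely. It was at 10.76, 10.04 and 8.51 on Ccr2-/- arrays, 7.89, 9.80 and 9.10 on Ccl2-/- arrays, and 9.88, 9.84 and 9.86 on wild type arrays. The wild type arrays were within 0.05 log2 units of each other, and all 3 Ccl2-/- arrays lay below them, one of them only just. The log2 change in Ccl2-/- over wild type was -0.93 (95% interval -2.31 to 0.45, adjusted p = 0.501), and it was -0.41 without replicate 1 of Ccl2-/-. In Ccr2-/- over wild type it was -0.09 (-1.47 to 1.29, adjusted p = 0.978).

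Cd3d (probe set 10584821), which encodes the delta chain, had the same highest arrays among the knockouts, over a narrower range. It was at 8.44, 8.04 and 7.68 on Ccr2-/- arrays, 7.77, 7.88 and 7.68 on Ccl2-/- arrays, and 7.97, 8.02 and 8.06 on wild type arrays. All Ccl2-/- arrays were below the wild type arrays, while the Ccr2-/- arrays again lay on both sides of them. The change in Ccl2-/- over wild type was -0.24 log2 units (95% interval -0.62 to 0.14, adjusted p = 0.52). The deposited values carry no detection call, so whether this probe set was above background was not tested.

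The surface receptors that modulate the T cell receptor signal showed the same arrays at their extremes. Cd5 (probe set 10466040), a scavenger receptor family protein that restrains signalling in T cells, was at 10.01, 9.41 and 8.36 on Ccr2-/- arrays, 8.34, 9.29 and 8.75 on Ccl2-/- arrays, and 9.32, 9.32 and 9.25 on wild type arrays. Cd6 (probe set 10466054), a relative of Cd5 that binds the adhesion molecule Alcam, was at 9.34, 8.80 and 7.88 on Ccr2-/- arrays, 8.16, 8.71 and 8.22 on Ccl2-/- arrays, and 8.54, 8.58 and 8.59 on wild type arrays. For both genes replicate 1 of Ccr2-/- was the highest of all 9 arrays, and the groups overlapped. The log2 change in Ccr2-/- over wild type was -0.04 for Cd5 (95% interval -0.92 to 0.85) and 0.10 for Cd6 (-0.64 to 0.84). In Ccl2-/- over wild type it was -0.50 for Cd5 (-1.38 to 0.39) and -0.21 for Cd6 (-0.95 to 0.53), or -0.27 and -0.11 without replicate 1 of Ccl2-/-.

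Cd28 (probe set 10346783), the receptor for CD80 and CD86 that gives T cells their main costimulatory signal, was at 10.19, 9.47 and 8.995 on Ccr2-/- arrays, 8.82, 9.45 and 9.10 on Ccl2-/- arrays, and 9.06, 9.05 and 9.17 on wild type arrays. Replicates 1 and 2 of Ccr2-/- and replicate 2 of Ccl2-/- exceeded every wild type array, but replicate 3 of Ccr2-/- was below them. The log2 change was 0.46 in Ccr2-/- over wild type (95% interval -0.18 to 1.09, adjusted p = 0.42). In Ccl2-/- over wild type it was 0.03 (-0.60 to 0.66), and its sign turned after median centring (-0.084) or quantile normalization (-0.082).

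Lat and Lef1 were the genes nearest to a difference. Lat (probe set 10567825), the adaptor phosphorylated by Zap70, which NK cells, mast cells and platelets also use, was at 11.62, 11.37 and 11.15 on Ccr2-/- arrays, 11.33, 11.04 and 10.62 on Ccl2-/- arrays, and 10.91, 10.83 and 10.62 on wild type arrays. All Ccr2-/- arrays were above all wild type arrays, and the Ccl2-/- arrays overlapped both groups. The log2 change in Ccr2-/- over wild type was 0.60, a 1.51-fold difference (95% interval 1.12 to 2.04-fold, adjusted p = 0.0792). This value was on the other side of the threshold after median centring (adjusted p = 0.0267) and when replicate 1 of Ccl2-/-, which is in neither group, was left out of the fit (adjusted p = 0.0253). Over all fits with 1 array left out, limma's adjusted p ranged from 0.0253 to 0.274. In Ccr2-/- over Ccl2-/- the change was 0.39 (95% interval -0.05 to 0.82, adjusted p = 0.32).

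Lef1 (probe set 10496091), a DNA-binding partner of beta-catenin, was at 11.58, 11.29 and 10.85 on Ccr2-/- arrays, 10.86, 11.09 and 10.66 on Ccl2-/- arrays, and 10.64, 10.80 and 10.69 on wild type arrays. The Ccr2-/- arrays were all above the wild type arrays, replicate 3 by little. The difference between Ccr2-/- and wild type was 1.45-fold (95% interval 1.09 to 1.93-fold, adjusted p = 0.101), and the adjusted p was 0.0198 without replicate 3 of Ccr2-/-. Over all fits with 1 array left out, limma's adjusted p ranged from 0.0198 to 0.313 and the log2 change from 0.36 to 0.73. Groups that did not overlap were not rare in this comparison: they were found for 2 of 9 T cell genes and for 33.9% of all genes, 15.7% with Ccr2-/- higher.

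Bcl11b (probe set 10402554), required for commitment to the T cell lineage, was at 9.92, 9.65 and 9.33 on Ccr2-/- arrays, 9.97, 9.47 and 9.13 on Ccl2-/- arrays, and 9.44, 9.37 and 9.17 on wild type arrays. The 3 groups overlapped. The log2 change was 0.31 in Ccr2-/- over wild type (95% interval -0.20 to 0.81, adjusted p = 0.535) and 0.19 in Ccl2-/- over wild type (-0.31 to 0.69, adjusted p = 0.658), where it was -0.032 without replicate 1 of Ccl2-/-.

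**Figure D2:**
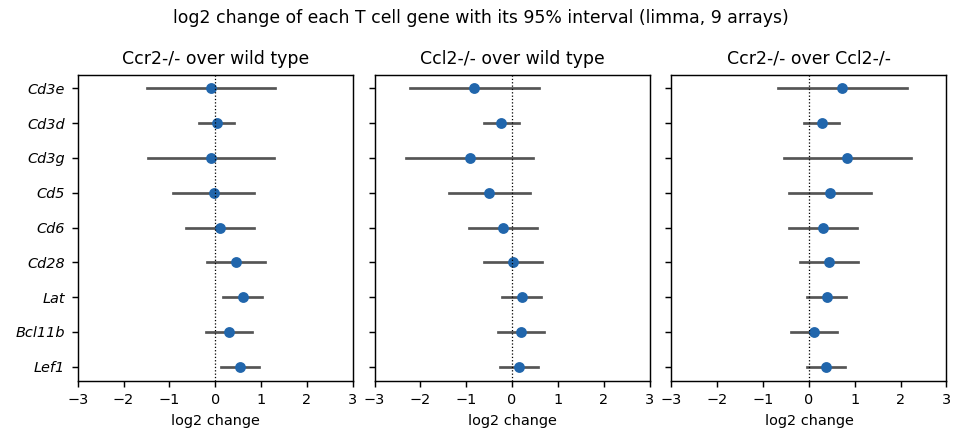
Fitted log2 change (points) with its 95% interval (lines) of each T cell gene in Ccr2-/- over wild type, Ccl2-/- over wild type and Ccr2-/- over Ccl2-/-. The intervals of Cd3e and Cd3g span more than 2 log2 units, while Lat and Lef1 in Ccr2-/- over wild type have intervals above 0 before adjustment over all genes.

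Over the 9 genes, the median log2 change was 0.10 in Ccr2-/- over wild type, beside 0.01 over all genes tested. It was -0.21 in Ccl2-/- over wild type (-0.11 without replicate 1 of Ccl2-/-), beside 0.08 over all genes, and 0.39 in Ccr2-/- over Ccl2-/-, beside -0.08 over all genes. Every one of the 9 genes had a higher mean in Ccr2-/- than in Ccl2-/- monocytes, but in no case were the groups apart, whereas the groups did not overlap for 23.6% of all genes. In Ccl2-/- over wild type the groups were apart for 2 of 9 genes, Cd3d and Cd3g, both lower in Ccl2-/-, and for 18.7% of all genes, 9.31% with Ccl2-/- lower. The limits named in the study's methods, a ratio of group means over 1.2 with a difference over 100, are met without regard to replicate spread. By these, 4 of 9 genes were higher in Ccr2-/- than in wild type (Cd28, Lat, Bcl11b and Lef1; 6.56% of all genes), and 3 were lower in Ccl2-/- than in wild type (Cd3e, Cd3g and Cd5; 3.76% of all genes). Between the knockouts 7 of 9, all but Cd3d and Bcl11b, were higher in Ccr2-/- by these limits (3.47% of all genes). The median in Ccr2-/- over wild type depended on single arrays. It was -0.16 without replicate 1 of Ccr2-/- and 0.54 without replicate 3, and Cd3e, Cd3g and Cd5 then turned to changes of 0.61, 0.54 and 0.41.

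The spread between replicate arrays was large for several of these genes. Its comparison with other genes was chosen after the values were seen and is a description with no test. The within-genotype SD, pooled over the 3 genotypes, was 0.89 log2 units for Cd3e and 0.87 for Cd3g, against a median of 0.146 over all genes. Only 0.186% of all genes had a spread at least as large as that of Cd3e, 37 genes with itself included, and 0.231% one as large as that of Cd3g. Cd5 (0.56), Cd6 (0.46) and Cd28 (0.39) lay within the top 1.32%, 2.74% and 4.93%. Bcl11b (0.31), Lat (0.26), Lef1 (0.25) and Cd3d (0.23) were closer to the bulk of genes, with 10.7% to 23.0% of all genes at least as variable. The spread lay among the knockout arrays: the mean of the 9 genes had an SD of 0.65 log2 units among Ccr2-/- arrays and 0.31 among Ccl2-/- arrays, against 0.03 among wild type arrays. The median SD of all genes in those groups was 0.09, 0.18 and 0.10. After median centring the pooled SDs of Cd3e and Cd3g were 0.94 and 0.93.

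**Figure D3:**
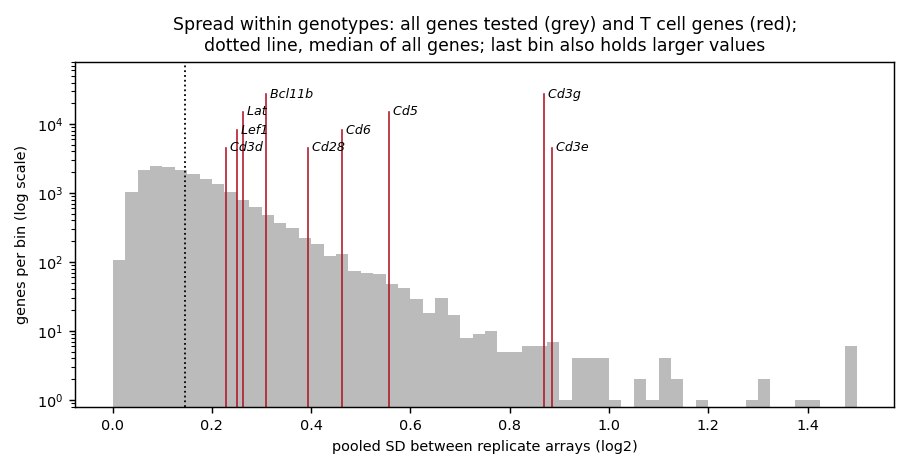
Number of genes (log axis) by pooled SD between replicate arrays in log2 units, for all 19938 genes in grey, with red lines at the 9 T cell genes and a dotted line at the median of all genes. Cd3e and Cd3g lie in the far tail, and Cd3d, Lef1, Lat and Bcl11b lie on the right shoulder of the main distribution.

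The deviating arrays were the same from gene to gene. Among Ccr2-/- arrays, replicate 1 was the highest and replicate 3 the lowest for 9 of 9 T cell genes, an order found for 20.9% of all genes. Among Ccl2-/- arrays, replicate 2 was the highest for 7 of 9 genes, against 16.9% of all genes, and only Lat and Bcl11b were highest in replicate 1, as 64.9% of all genes were. After centring, the order with replicate 2 highest and replicate 1 lowest was found for 7 of 9 genes and for 18.1% of all genes. Each genotype has only 3 arrays and these genes are not independent of each other, so these counts describe the arrays. Across the 9 centred arrays the correlation of each gene with the mean of the others was 0.92 to 0.98 for Cd3e, Cd3d, Cd3g, Cd5, Cd6 and Cd28, 0.81 for Lef1, 0.48 for Lat and 0.44 for Bcl11b (Pearson's r, 9 arrays that include the genotype differences).

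**Figure D4:**
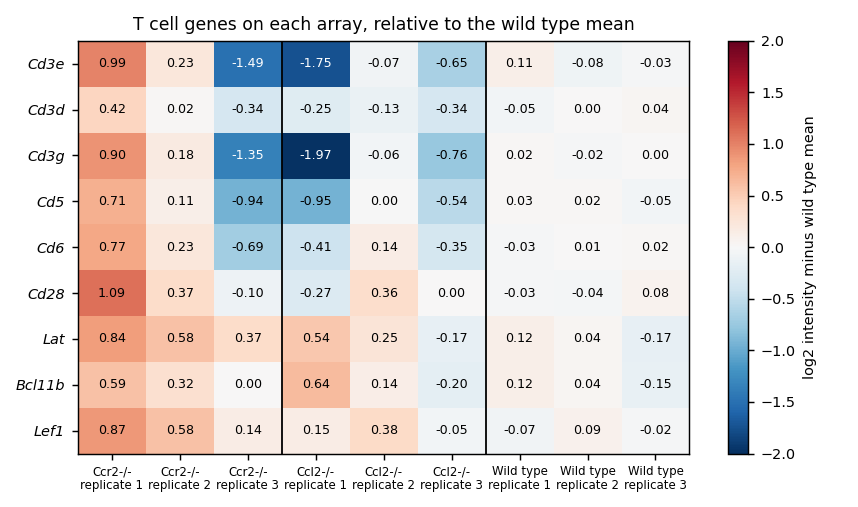
Log2 intensity of each T cell gene on each array minus the gene's wild type mean, with Ccr2-/- arrays at the left, Ccl2-/- arrays in the middle and wild type arrays at the right; red is higher and blue lower. Replicate 1 of Ccr2-/- is red throughout, and replicates 3 of Ccr2-/- and 1 of Ccl2-/- are blue for the CD3 chains, Cd5 and Cd6.

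Genes outside the list with the most similar course over the arrays included several of resting T cells. Of 19062 genes with a mean intensity over 100, the 10 with the highest Pearson's r with the mean of the 9 genes were Il7r (0.979), Trib2 (0.978), Kcnn4 (0.977), Cd8a (0.973), S1pr1 (0.972), Themis (0.968), Fam78a (0.967), Ccr7 (0.961), H2-Ob (0.96) and Dgka (0.958). Il7r, the receptor that keeps naive and memory T cells alive, was at 11.34, 10.63 and 8.84 on Ccr2-/- arrays, 8.61, 10.20 and 9.52 on Ccl2-/- arrays, and 10.24, 10.19 and 10.19 on wild type arrays. Its pooled SD was 0.88, close to that of Cd3e, and its highest and lowest arrays were the same. Ccr7, the receptor that brings naive T cells into lymph nodes, was at 11.25, 10.77 and 9.62 on Ccr2-/- arrays, 10.06, 10.58 and 10.12 on Ccl2-/- arrays, and 10.51, 10.62 and 10.54 on wild type arrays. S1pr1, which lets lymphocytes leave lymph nodes, spread with a pooled SD of 0.66. None of the 10 passed the test in either knockout over wild type.

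Cd4 and Cd8b1, named after their values were seen because antibodies to CD4 and CD8 were used in the depletion, had the same course. Cd4 was at 10.58, 9.66 and 8.12 on Ccr2-/- arrays, 8.03, 9.76 and 9.18 on Ccl2-/- arrays, and 9.66, 9.66 and 9.80 on wild type arrays. Cd8b1 was at 11.25, 10.94 and 9.48 on Ccr2-/- arrays, 9.73, 10.35 and 9.72 on Ccl2-/- arrays, and 10.61, 10.61 and 10.36 on wild type arrays. Replicate 1 of Ccr2-/- was the highest array for both, and the pooled SDs were 0.88 and 0.59. Neither passed the test between genotypes (log2 change in Ccr2-/- over wild type of -0.25 for Cd4, 95% interval -1.65 to 1.15, and 0.03 for Cd8b1, -0.91 to 0.97). Of the wider T lineage list, which held coreceptors, costimulators and lineage factors, 15 of 21 genes were measured, and genes of the receptor's constant regions were not among them. In Ccr2-/- over wild type 1 of these 15 passed, Tigit, an inhibitory receptor that NK cells also bear (1.85-fold, adjusted p = 0.0385), beside 4.91% of all genes higher. Over 17 other settings the count was 0 to 2, and it was 0 without any one of the wild type arrays, without Ccl2-/- replicate 2 and without Ccr2-/- replicate 1 or 2. Tigit was at 10.32, 10.36 and 10.51 on Ccr2-/- arrays, 10.99, 10.38 and 9.91 on Ccl2-/- arrays, and 9.49, 9.63 and 9.42 on wild type arrays. Among Ccr2-/- arrays it was highest in replicate 3, where Cd3e was lowest, and which cells gave these values was not tested. The other comparisons had 0 of 15.

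Genes of recirculating T cells and their transcription factors were mixed. Of 15 measured, 4 were higher in Ccr2-/- than in wild type (Gata3, Ets1, Satb1 and Tox), beside 4.91% of all genes, 0 were lower and 11 did not pass, among them Ccr7, Il7r, S1pr1 and Dgka. Gata3, a transcription factor of helper T cells and innate lymphocytes, was at 10.91, 10.64 and 10.54 on Ccr2-/- arrays, 10.24, 10.27 and 9.91 on Ccl2-/- arrays, and 9.55, 9.63 and 9.65 on wild type arrays. The 3 groups did not overlap, and the difference between Ccr2-/- and wild type was 2.12-fold (95% interval 1.74 to 2.59-fold, adjusted p = 0.00103). Gata3 was also the 1 gene of this list that passed in Ccr2-/- over Ccl2-/- (log2 change 0.56, adjusted p = 0.0496; 0.732% of all genes were higher), and 0 of 15 passed in Ccl2-/- over wild type. Over 17 other settings between 0 and 2 genes of the list passed between the knockouts, and there were none when any array other than Ccl2-/- replicate 1 was left out.

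Many genes of a T cell receptor signalling list, which also held surface receptors such as Cd2 and Cd96, were higher on Ccr2-/- arrays. Of 17 measured, 11 passed as higher in Ccr2-/- than in wild type, beside 4.91% of all genes, 0 as lower and 6 did not pass, with a median of 1.70-fold. The 11 were Cd247, Zap70, Fyn, Prkcq, Skap1, Grap2, Txk, Sh2d2a, Cd2, Cd96 and Rasgrp1, and most of them act in NK cells as well. Cd247, the zeta chain that pairs with both the T cell receptor and NK receptors, was at 11.19, 10.97 and 10.88 on Ccr2-/- arrays, 10.70, 10.66 and 10.11 on Ccl2-/- arrays, and 9.81, 10.12 and 9.93 on wild type arrays. Zap70, the kinase recruited by phosphorylated CD3 and zeta tails, was at 10.68, 10.43 and 10.28 on Ccr2-/- arrays, 10.10, 10.16 and 9.83 on Ccl2-/- arrays, and 9.41, 9.53 and 9.41 on wild type arrays. For Zap70 the 3 genotypes were fully apart, with a 2.02-fold difference between Ccr2-/- and wild type (95% interval 1.66 to 2.45-fold, adjusted p = 0.0012). Prkcq, the protein kinase C isoform of the T cell synapse, differed 2.05-fold (adjusted p = 0.00139), Grap2 1.97-fold (0.00198) and Txk 1.95-fold (0.00228). The pooled SD of this list had a median of 0.17, against 0.394 for the 9 T cell genes. Plcg1, the phospholipase bound by phosphorylated Lat, was an exception chosen after its values were seen, at 9.95, 9.59 and 8.83 on Ccr2-/- arrays, 8.39, 9.34 and 8.95 on Ccl2-/- arrays, and 9.39, 9.39 and 9.40 on wild type arrays, the course of Cd3e. Against wild type, 0 of 17 passed in Ccl2-/- monocytes, but 6 did without replicate 3 of Ccl2-/- and 4 with an intensity trend in the variances. The genes called higher over the whole table also grew in number there, with 260 in the first setting and 195 in the second, against 15 in the values reported. Between the knockouts 2 of 17 passed, Grap2 and Cd96, both higher in Ccr2-/-.

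Few gamma delta T cell genes had a probe set with a single symbol. Of 5 measured from a list of 12, 1 passed in Ccr2-/- over wild type, Zbtb16, a factor of innate-like lymphocytes (1.75-fold, adjusted p = 0.00376), beside 4.91% of all genes higher, and 0 passed in the other comparisons. Among 3 receptor segments with a probe set of a single symbol, added once the annotation had been read, Trgv1 was higher in Ccr2-/- than in wild type (1.59-fold, adjusted p = 0.0176), with 8.93, 8.82 and 8.76 on Ccr2-/- arrays, 8.80, 8.65 and 8.22 on Ccl2-/- arrays, and 8.13, 8.33 and 8.04 on wild type arrays. The call of Trgv1 was lost without wild type replicate 1 or 3 and without Ccr2-/- replicate 1 or 2. Both genes were above every wild type array in replicate 3 of Ccr2-/-, where Cd3e was below them. This contrast rests on 1 array, and which cells gave these values was not tested.

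Markers of NK cells differed by genotype and varied little between replicates. Of 20 measured, 19 passed as higher in Ccr2-/- than in wild type, beside 4.91% of all genes, 0 as lower, and the median was 1.72-fold. Their summed intensity was 140700 to 145700 on Ccr2-/- arrays, 103300 to 124900 on Ccl2-/- arrays and 81770 to 89860 on wild type arrays, with no overlap between genotypes. Ncr1, a receptor that defines NK cells and related innate lymphocytes, was at 13.41, 13.38 and 13.35 on Ccr2-/- arrays, 13.16, 13.11 and 12.96 on Ccl2-/- arrays, and 12.63, 12.73 and 12.70 on wild type arrays. The list's median pooled SD was 0.11. Among Ccr2-/- arrays the mean log2 intensity of the NK markers ranged from 12.42 to 12.49, and that of the 9 T cell genes from 9.105 to 10.39. Klrc1, an inhibitory receptor, was the 1 of 20 that passed in Ccl2-/- over wild type (log2 change 0.71, adjusted p = 0.0493; 0.0752% of all genes were higher), with 13 without replicate 3 of Ccl2-/-, 15 with an intensity trend and 0 when any other single array was left out or after median centring. Between the knockouts 3 were higher in Ccr2-/- (Klra3, Klra8 and Tbx21; 0.732% of all genes), with 10 without replicate 1 of Ccl2-/-, 7 after median centring, 12 with an intensity trend and 0 without Ccr2-/- replicate 1 or 2. The part of NK cells in the values of Lat, Lef1 and the signalling genes was not tested. Whether the probe sets of NK receptors such as Klra8 match Balb/cJ sequence was not tested either.

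Of the other cells that the preparation could hold, markers of basophils and mast cells also varied between replicates. The summed intensity of their 8 markers was 6432, 5634 and 3768 on Ccr2-/- arrays, 2656, 3415 and 3558 on Ccl2-/- arrays, and 7196, 5456 and 4002 on wild type arrays. Replicate 3 of Ccr2-/- and replicate 1 of Ccl2-/- were again the lowest of their groups. The wild type arrays, however, differed as much here as the Ccr2-/- arrays, while their T cell genes did not. Of these 8 markers 0 passed in any comparison. For 6 of them, however, all Ccl2-/- arrays lay below all wild type arrays, and for 0 above, beside 9.31% of all genes below. The median of the 8 in Ccl2-/- over wild type was 0.594-fold. B cell markers stayed within 8.34 to 8.56 mean log2 units on Ccr2-/- arrays, 8.18 to 8.31 on Ccl2-/- arrays and 8.22 to 8.52 on wild type arrays. Of the 12, 1 passed in Ccr2-/- over wild type, Cd22, higher, beside 4.91% of all genes. Monocyte markers were lower in Ccr2-/- than in wild type for 6 of 10 genes (median 0.802-fold, beside 8.38% of all genes lower) and for 3 of 10 in Ccr2-/- over Ccl2-/- (2.87% of all genes were lower), with 0 of 10 in Ccl2-/- over wild type. Over 17 other settings the first count was 3 to 8 and the second 0 to 7, with 3 and 0 after median centring. Of 5 eosinophil genes, Ccr3 alone was higher in Ccr2-/- than in wild type (4.91% of all genes were higher) and than in Ccl2-/- (0.732%). The other 4 did not pass in either comparison, and whether the Ccr3 values came from eosinophils was not tested. Of 9 dendritic cell genes, Flt3 and Cd209a were lower in Ccr2-/- than in wild type (8.38% of all genes). Flt3 was also lower in Ccl2-/- than in wild type (0.0853% of all genes). The count of dendritic cell genes lower in Ccl2-/- than in wild type was 0 to 2 over 17 other settings. The study reported lower Flt3 in Ccr2-/- but not in Ccl2-/- monocytes. No platelet (6 measured), neutrophil (11) or erythroid (4) marker passed in any comparison. The part of any of these cells in the T cell gene values was not tested.

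**Figure D5:**
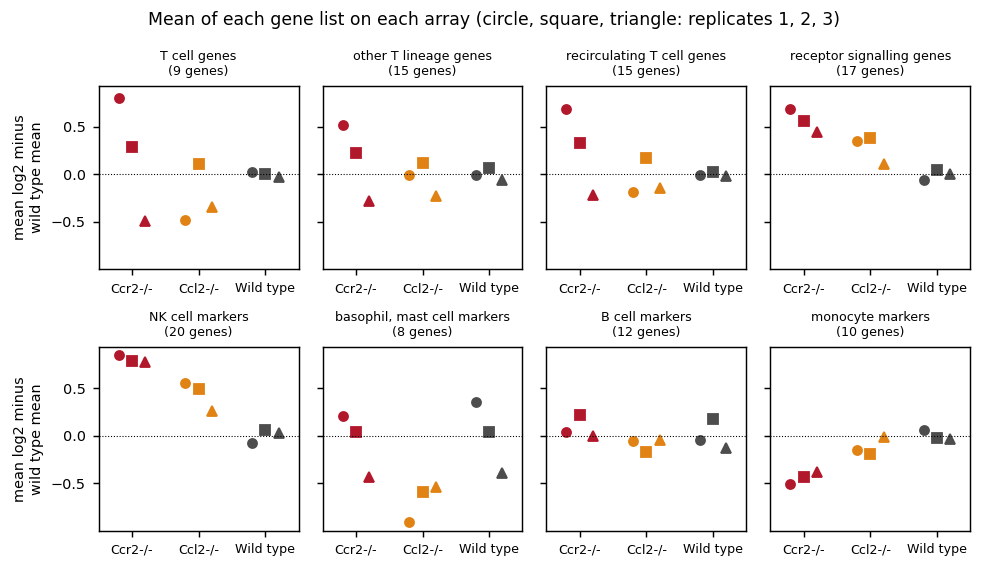
Mean log2 intensity of each gene list on each array minus its wild type mean, with Ccr2-/-, Ccl2-/- and wild type arrays from left to right and circles, squares and triangles for replicates 1, 2 and 3. The T cell genes, the other T lineage genes and the recirculating T cell genes fan out among Ccr2-/- arrays, the NK cell markers lie together within each genotype and highest in Ccr2-/-, and the basophil and mast cell markers also fan out among wild type arrays.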

How the data were processed

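The authors computed the deposited intensity values with dChip from Affymetrix Mouse Gene 1.0 ST arrays, with 1 linear value for each of 35512 probe sets on each of 9 arrays, 3 for each genotype. The version, normalization and expression model were not given in the sources used here. Arrays have no read depth, and their number limits the precision.

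Gene symbols came from the platform annotation, checked against RefSeq by gene identifier, which changed 0 symbols: 21789 probe sets had 1 symbol, 1621 several and 12102 none. Only the first were used, and for 999 genes with several probe sets the one with the highest mean was taken, which left 19938 genes. Values below 1 (19 of all values) were set to 1 before log2. The 9 arrays entered 1 limma fit (version 3.58.1, R 4.3.3, lmFit and eBayes) with a mean for each of the 3 genotypes. A gene was called where its Benjamini-Hochberg p, taken over the whole table, was under 0.05. The other lists were described by their counts and medians with no set test.

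The T cell genes, the lists and the tests were chosen with earlier results of these data known. Named were all T cell genes, Ccl2 and Ccr2, from each list those among the 4 with the smallest p in Ccr2-/- over wild type, any gene that was the whole of a count of 5 or fewer, and the 10 genes most alike over arrays. Others named were chosen after their values were seen. Alternatives were quantile normalization, median centring, a filter on mean intensity over 100, an intensity trend, an offset of 50, the mean of a gene's probe sets, fits of only the 6 arrays compared, a block for the replicate number, omission of single arrays, the size limits of the study's methods and unadjusted p. Promoter sequences were read from RefSeq (GRCm38.p6).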

Additional observations from a re-analysis of the deposited data

How the results depend on the processing

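The count of T cell genes that passed in Ccr2-/- over wild type was 0 in the values reported and 1 with quantile normalization, with median centring, with an intensity trend, with only the 6 arrays compared and with the replicate number as a block. In each of these the gene was Lat, with adjusted p of 0.0469, 0.0267, 0.0384, 0.0204 and 0.0105 in that order. With single arrays left out the count ranged from 0 to 1 (Lat without Ccl2-/- replicate 1, adjusted p = 0.0253, or replicate 3, 0.0324; Lef1 without Ccr2-/- replicate 3, 0.0198). By the size limits the counts were 4 in Ccr2-/- over wild type, 3 in Ccl2-/- over wild type and 7 in Ccr2-/- over Ccl2-/-, and at unadjusted p the first was 2. The median log2 change in Ccr2-/- over wild type ranged from -0.16 to 0.54 with single arrays left out. The highest adjusted p of limma in those fits was 0.274 for Lat and 0.313 for Lef1.

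Cd28 in Ccl2-/- over wild type turned to -0.082 with quantile normalization and -0.084 with centring. Leaving out 1 array at a time, the log2 changes that turned sign ranged as follows. In Ccr2-/- over wild type they were -0.63 to 0.61 for Cd3e, -0.16 to 0.22 for Cd3d, -0.59 to 0.54 for Cd3g, -0.41 to 0.41 for Cd5 and -0.23 to 0.50 for Cd6. In Ccl2-/- over wild type they were -0.14 to 0.18 for Cd28 and -0.032 to 0.39 for Bcl11b, and in Ccr2-/- over Ccl2-/- -0.024 to 0.71 for Cd6 and -0.083 to 0.34 for Bcl11b. The cause was not tested. Of the remaining values, 439 for single genes kept their direction and their side of the threshold. Another 95, for counts and medians, stayed near the value reported, a median within 0.41 log2 units of it. The sign of a median was not part of that rule. In Ccr2-/- over wild type the median went from 0.10 to -0.16 without Ccr2-/- replicate 1.

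The labels gave arrays of different genotypes only a replicate number in common. The correlation of the deviations of same-numbered arrays was -0.18 to 0.562. Between Ccl2-/- and wild type it was 0.344 for replicate 1 and 0.562 for replicate 3. Whether same-numbered arrays were processed together was not given and was not tested. The block changed no call among the T cell genes other than that of Lat. Over all genes in Ccr2-/- over wild type, 978 were higher and 1670 lower, against 1317 and 1379 with quantile normalization, 688 and 959 with median centring, and 731 and 1363 with the block. No detection calls were at hand, so low signals could not be told from background.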
